A study of Mus musculus with 6 samples.

Results

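The cytochrome P450 genes of families 1 to 4 were measured in distal and proximal colon tissue of female C57BL/6J mice, an inbred strain, none of which had been treated. They were taken as all genes whose symbol in the array's annotation begins with Cyp1, Cyp2, Cyp3 or Cyp4 followed by a letter, using probe sets that name 1 gene. Each gene was read from 1 probe set, the one with the highest mean over the 6 arrays. This gave 56 genes among 18193: 3 of family 1, 35 of family 2, 5 of family 3 and 13 of family 4. There were 3 libraries labelled distal and 3 labelled proximal, which differ in nothing else that the labels state. The study's design text says that 3 mice supplied the tissue of both regions, and the labels give no age and do not say which numbers share a mouse. The values are log2 expression per probe set, so a difference of 1 is a doubling, and differences are distal minus proximal throughout. A probe set's brightness depends on its own sequence, so levels are compared between libraries and not between genes.

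Cytochrome P450 enzymes are haem proteins, mostly of the endoplasmic reticulum, that insert an oxygen atom into lipophilic substrates with electrons from cytochrome P450 reductase or cytochrome b5. Families 1 to 3 oxidise many drugs, dietary compounds and pollutants, together with steroids and fatty acids, and family 4 hydroxylates the ends of fatty acids and eicosanoids. In the gut these enzymes stand mainly in the absorptive epithelium, where several are induced through the aryl hydrocarbon receptor, the pregnane X receptor and the constitutive androstane receptor.

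A pair of libraries went against their labels. Hoxd13, whose homeobox protein patterns the posterior end of the body, measured 12.69, 12.62 and 4.90 in distal 1, 2 and 3, against 12.54, 4.83 and 5.11 in proximal 1, 2 and 3. Nts, the gut peptide neurotensin, measured 5.88, 5.45 and 12.19 in distal 1, 2 and 3, against 7.32, 12.45 and 12.65 in proximal 1, 2 and 3. The library labelled distal 3 thus lay with proximal 2 and 3 in both genes, and the library labelled proximal 1 lay with distal 1 and 2. Results are therefore given for the 6 libraries as labelled and without this pair, as distal 1 and 2 (the distal pair) against proximal 2 and 3 (the proximal pair). Since the choice of these 4 libraries rests on their own expression, the p-values of this test are too small and describe only them; it gives no library a new label. The 9 epithelial markers, among them Epcam and Vil1, lay between 12.14 and 14.76 in all libraries, with Cdx2 (-0.875, limma adjusted p = 0.0212) and Krt20 (-0.49, limma adjusted p = 0.0307) lower in the distal pair and 7 that did not pass. Of 10 hepatocyte markers 1 was higher, 2 were lower and 7 did not pass, and their levels ran from 3.60 to 13.34. The liver-defining Fga lay between 3.60 and 3.83, where the lower quartile of all gene values was 6.54. Alb was higher by 0.90 (limma adjusted p = 0.00662), with 6.69 and 6.59 in the distal pair against 5.77 and 5.71 in the proximal pair. Cps1 (-1.88, limma adjusted p = 0.00555) and Serpina1b (-1.48, limma adjusted p = 0.0049) were lower, and Ttr lay between 11.56 and 13.26. Pancreatic acinar markers, 8 genes such as Cpa1, averaged 12.42, 6.45 and 6.59 in distal 1, 2 and 3, against 12.43, 6.7 and 6.43 in proximal 1, 2 and 3. The mean was high in distal 1 and proximal 1. Cela1 alone passed, higher by 1.74 (limma adjusted p = 0.00759), with 14.06 and 13.43 in distal 1 and 2, and the log2 summed level was 15.62, 13.49 and 12.18 in distal 1, 2 and 3, against 15.59, 12.18 and 12.17 in proximal 1, 2 and 3. All 3 measured B cell markers were higher in the distal pair, with log2 summed levels of 10.90 and 10.83 against 9.14 and 9.19 in the proximal pair. All 3 T cell markers were lower, at 10.09 and 10.27 in the distal pair against 11.52 and 11.72 in the proximal pair, and 3 of 6 macrophage markers were lower. Of all genes, 7.71% passed as higher and 11.5% as lower in the distal pair. The part of these cell types in the results was not tested. In bulk tissue, fewer cells of a type and less RNA per cell cannot be told apart.

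**Figure D1:**
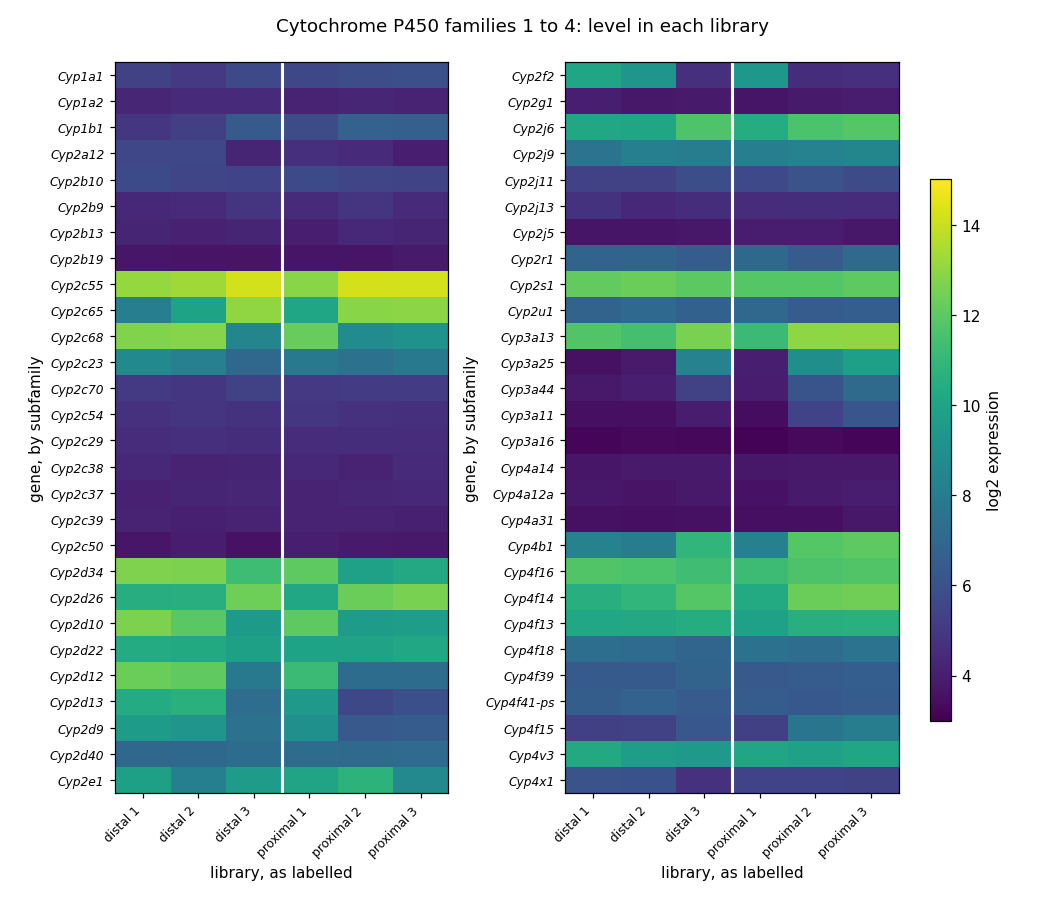
Level of each of the 56 genes (rows, grouped by subfamily) in the 6 libraries (columns, distal left of proximal), as colour on the log2 expression scale. Cyp2f2, most Cyp2d genes and Cyp2c68 are bright in distal 1, distal 2 and proximal 1, and Cyp3a25, Cyp4b1 and Cyp2c65 in distal 3, proximal 2 and proximal 3.

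As labelled, none of the 56 genes differed between distal and proximal libraries (limma, adjusted p from 0.824 to 0.991). The share of all 18193 genes that passed was 0%, and at an unadjusted p of 0.05 it was 3.05% of all genes and 0 of the 56. The smallest unadjusted p was 0.0513, for Cyp1a1. Only Cyp2j5, a dim gene at a difference of -0.18, had distal and proximal values that did not overlap, against a share of 7.33% of all genes, 2.73% with distal higher and 4.6% with distal lower. Cyp2d13 had the largest difference as labelled, 9.42 ± 1.86 in distal and 7.0 ± 2.13 in proximal libraries (SD, n = 3 each), or 2.42 (SE 1.30, limma adjusted p = 0.824). Cyp3a25 followed with 5.25 ± 2.65 in distal and 7.59 ± 3.12 in proximal libraries (SD, n = 3 each), or -2.34 (SE 1.88, limma adjusted p = 0.824). Cyp2d12 differed by 2.20 and Cyp2f2 by 1.78. In each of these genes the labelled groups overlapped, with 1 library of each label among the other label's values.

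Without the libraries labelled distal 3 and proximal 1, 23 of the 56 genes differed between the pairs (limma, adjusted p from 0.000109 to 0.0446). They were 9 genes higher and 14 lower in the distal pair. The share of all genes that passed was 19.2%, with 7.71% higher and 11.5% lower, against 41.1% of the P450 genes. Of the 23, 20 differed at least 2-fold, where 6.28% of all genes passed with such a size. The median difference was -0.075 over the 56 genes and -0.045 over all genes. In each of the 23 genes both values of the distal pair lay on one side of both proximal-pair values. Leaving out 1 library therefore could not reverse a sign. The count fell to 17 without distal 1, 10 without distal 2, 12 without proximal 2 and 9 without proximal 3, with the sign of all 23 kept in each case. Only Cyp2f2, Cyp2d12, Cyp2d13, Cyp2d9, Cyp2c68 and Cyp4b1 passed in all 4 of these fits, which leave 1 residual degree of freedom. In at least 1 fit each of these genes lay only just under the threshold. For the other 17 the adjusted p reached up to 0.321 without 1 library. For 12 of the 23, the pair with less signal had a mean under 6.54, the lower quartile of all genes. That quartile is not a measured detection limit. A drop may be compressed at low signal, so the sizes of these 12 differences are uncertain. Of the 33 genes that did not pass, 19 were below that quartile in every library.

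**Figure D2:**
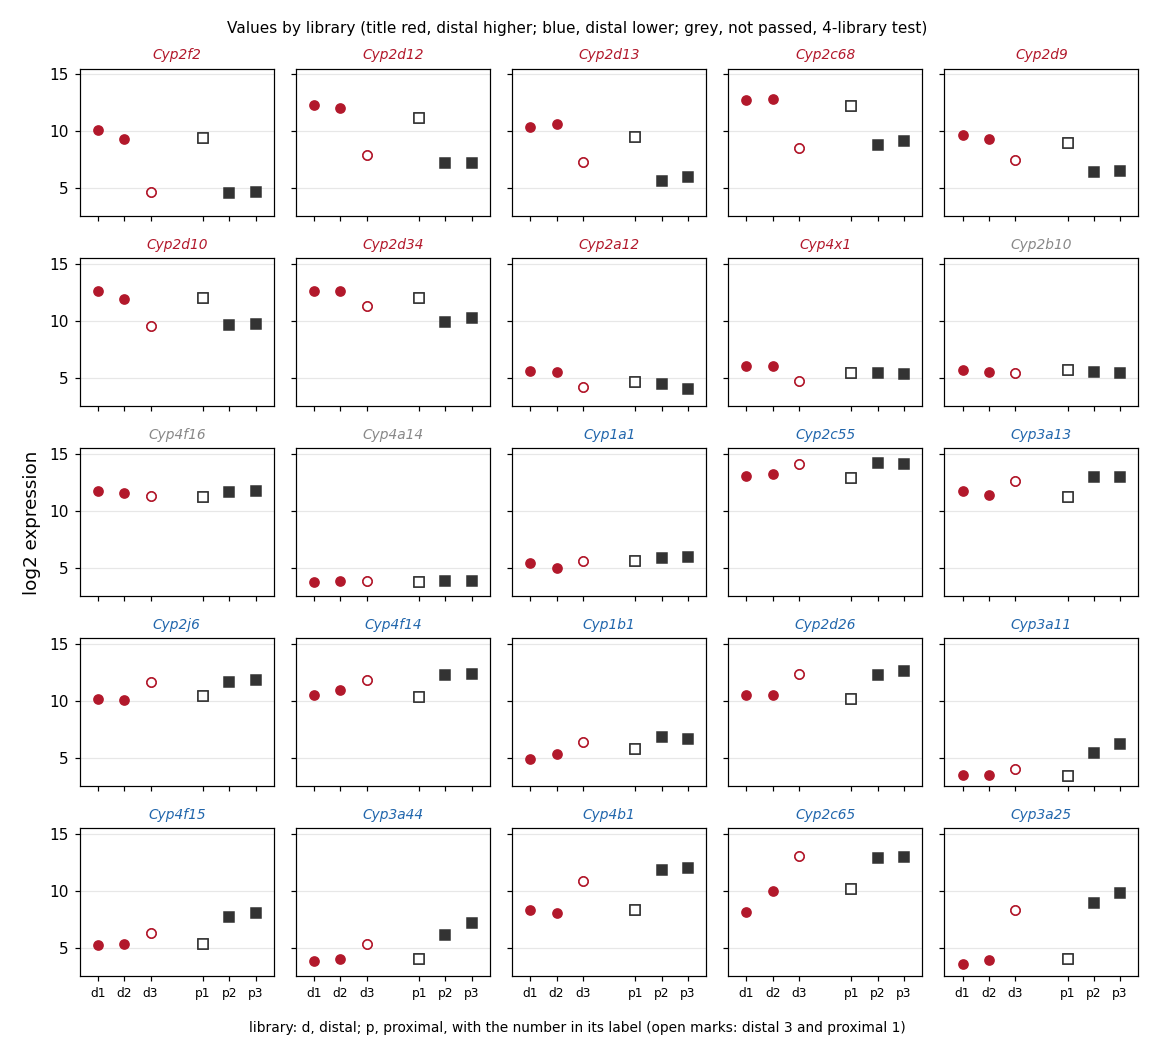
Log2 expression by library for the 25 genes described in full, ordered from the most positive to the most negative difference of the 4-library test. Circles are distal and squares proximal libraries, with open marks for distal 3 and proximal 1, which lie with the other label in Cyp2f2, Cyp2d12, Cyp3a25 and most other genes.

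The Cyp2d genes, relatives of the human drug-metabolising enzyme CYP2D6 that lie side by side on chromosome 15, were mostly higher in the distal pair. Of 8 measured genes, 5 were higher, 1 was lower and 2 did not pass. Cyp2d12 measured 12.31, 12.05 and 7.86 in distal 1, 2 and 3, against 11.18, 7.22 and 7.23 in proximal 1, 2 and 3. Its difference between the pairs was 4.96 (SE 0.13, limma adjusted p = 0.000109), a 31.0-fold higher level. Both libraries of the distal pair lay far above the proximal pair, with proximal 1 high and distal 3 low. Cyp2d13, which RefSeq lists as a transcribed pseudogene, measured 10.39, 10.60 and 7.27 in distal 1, 2 and 3, against 9.45, 5.62 and 5.93 in proximal 1, 2 and 3. It differed by 4.72 (SE 0.15, limma adjusted p = 0.000209), and its second probe set differed by 4.02. Here distal 3 stood above the proximal pair and below the distal one. Cyp2d9, known as a testosterone 16-alpha-hydroxylase of male mouse liver, measured 9.65, 9.28 and 7.48 in distal 1, 2 and 3, against 9.0, 6.37 and 6.5 in proximal 1, 2 and 3. It differed by 3.03 (SE 0.16, limma adjusted p = 0.000641) in these female mice. Cyp2d10 measured 12.61, 11.93 and 9.55 in distal 1, 2 and 3, against 12, 9.61 and 9.72 in proximal 1, 2 and 3, a difference of 2.61 (SE 0.23, limma adjusted p = 0.00304). The pairs were apart and distal 3 lay just below both proximal 2 and 3. Cyp2d34 measured 12.67, 12.62 and 11.28 in distal 1, 2 and 3, against 12.01, 9.87 and 10.24 in proximal 1, 2 and 3, a difference of 2.59 (SE 0.15, limma adjusted p = 0.000954). In this gene distal 3 lay about midway between the pairs. Cyp2d10 lost its call without proximal 2 or proximal 3 (adjusted p up to 0.0925) and Cyp2d34 without distal 2 (adjusted p = 0.0595).

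Cyp2d26, at one end of the same cluster, ran the other way. It measured 10.49, 10.53 and 12.37 in distal 1, 2 and 3, against 10.18, 12.31 and 12.59 in proximal 1, 2 and 3, and fell by 1.94 on the log2 scale (SE 0.13, limma adjusted p = 0.0015). The distal pair and proximal 1 formed the low set, and the call was lost without distal 2 or proximal 3 (adjusted p up to 0.0603). Cyp2d22, a widely expressed member at the other end, differed by 0.29 (95% interval -0.04 to 0.62) and Cyp2d40 by -0.12 (95% interval -0.38 to 0.14), neither of which passed. The second probe set of Cyp2d22 went the other way, by -0.43, and did not pass either. RefSeq lists 19 Cyp2d genes and pseudogenes in this cluster, and the 5 higher genes were neighbours in the order of those measured. The start regions of Cyp2d9 and Cyp2d26 are shown because these cluster members differed in opposite directions. They are 300 bases each from RefSeq (GRCm38.p6), 250 before and 50 after the annotated start, at chr15:82452127-82452426 on the plus strand and chr15:82794196-82794495 on the minus strand.
Cyp2d9: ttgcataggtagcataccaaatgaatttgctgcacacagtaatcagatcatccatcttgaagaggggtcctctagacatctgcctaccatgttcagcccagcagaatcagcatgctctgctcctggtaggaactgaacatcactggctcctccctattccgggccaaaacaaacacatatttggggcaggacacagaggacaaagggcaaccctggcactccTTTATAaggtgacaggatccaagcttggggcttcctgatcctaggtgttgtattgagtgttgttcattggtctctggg
Cyp2d26: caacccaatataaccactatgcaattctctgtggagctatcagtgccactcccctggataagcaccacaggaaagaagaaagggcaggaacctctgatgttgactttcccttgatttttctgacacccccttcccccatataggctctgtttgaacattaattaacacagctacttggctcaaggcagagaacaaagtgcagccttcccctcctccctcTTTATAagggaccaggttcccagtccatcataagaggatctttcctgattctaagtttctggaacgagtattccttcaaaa
Capitals here and below mark, on either strand, the TATA box letters TATAAA, the half-site bound by nuclear receptors, AGGTCA, or the site bound by HNF4, CAAAGTCCA. Both regions hold TATAAA on the other strand, beginning 28 bases before the start in Cyp2d9 and 31 in Cyp2d26, and neither holds the other motifs. The 300 bases were 82.9% identical between Cyp2d9 and Cyp2d10, which moved together, and 50.7% between Cyp2d9 and Cyp2d26. For scale, regions from different subfamilies were 46.2% (Cyp2f2 and Cyp2d9) and 45.4% (Cyp2f2 and Cyp2c68) identical. Probe sets of such similar genes may detect relatives, and the transcript sequences were not used here.

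**Figure D3:**
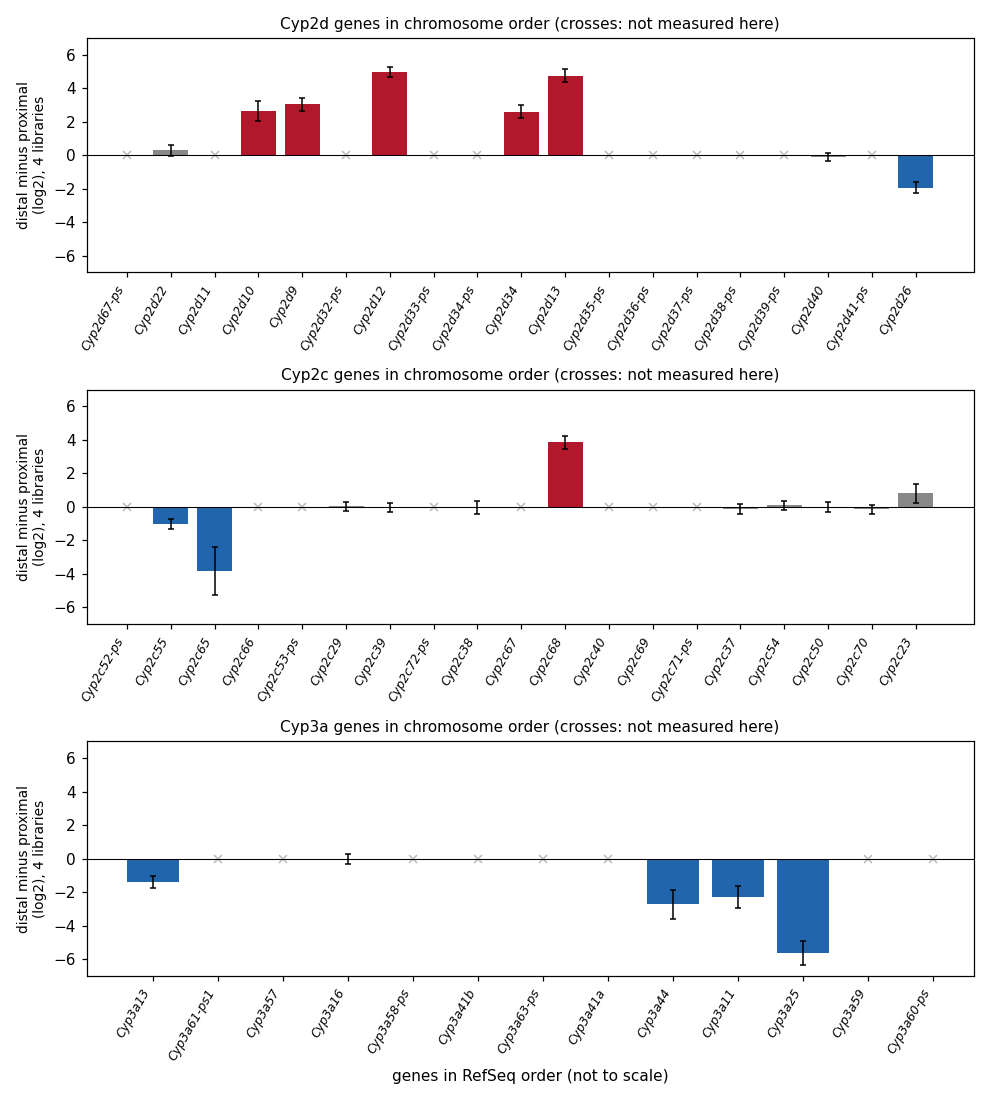
Distal minus proximal difference (log2, 4-library test, bars with 95% intervals) for the Cyp2d, Cyp2c and Cyp3a genes in their order along chromosomes 15, 19 and 5. Red bars passed as higher, blue bars as lower, grey bars did not pass, and crosses are genes with no single-gene probe set here. The higher Cyp2d genes sit together, Cyp2c genes go both ways and 4 of 5 Cyp3a genes are lower.

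The Cyp2c genes, a subfamily on chromosome 19 that includes arachidonic acid epoxygenases and hydroxylases, held both directions. Of 11 measured genes 1 was higher and 2 were lower in the distal pair, 8 did not pass, and 7 lay below the lower quartile in every library. Cyp2c68 measured 12.73, 12.84 and 8.51 in distal 1, 2 and 3, against 12.20, 8.77 and 9.10 in proximal 1, 2 and 3, a difference of 3.85 (SE 0.15, limma adjusted p = 0.000311). Its high set was the distal pair with proximal 1. Cyp2c65, an enzyme of the mouse intestine, measured 8.15, 9.98 and 13.01 in distal 1, 2 and 3, against 10.11, 12.89 and 12.93 in proximal 1, 2 and 3. The difference between the pairs was -3.85 for this gene (SE 0.57, limma adjusted p = 0.0119), the size of that of Cyp2c68 with the opposite sign. The distal libraries differed by more than a unit here, and the probe set's suffix marks it as able to bind more than 1 transcript. Without proximal 2 or proximal 3 its call was lost, with adjusted p up to 0.177. Cyp2c55, known for hydroxylating arachidonic acid and for its colonic expression, was bright in all libraries. It measured 13.08, 13.28 and 14.16 in distal 1, 2 and 3, against 12.87, 14.22 and 14.16 in proximal 1, 2 and 3, a difference of -1.01 (SE 0.12, limma adjusted p = 0.00648), or 2.01-fold lower. It was lower in the distal pair and proximal 1, and its call was lost without distal 2, proximal 2 or proximal 3 (adjusted p up to 0.139). Cyp2c23, an epoxygenase of mouse kidney, differed by 0.80 and did not pass (95% interval 0.25 to 1.35, limma adjusted p = 0.0584).

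The start regions of Cyp2c68 and Cyp2c65 are shown because these genes had differences of equal size and opposite sign. They are 300 bases each from RefSeq (GRCm38.p6), at chr19:39741052-39741351 on the minus strand and chr19:39060756-39061055 on the plus strand.
Cyp2c68: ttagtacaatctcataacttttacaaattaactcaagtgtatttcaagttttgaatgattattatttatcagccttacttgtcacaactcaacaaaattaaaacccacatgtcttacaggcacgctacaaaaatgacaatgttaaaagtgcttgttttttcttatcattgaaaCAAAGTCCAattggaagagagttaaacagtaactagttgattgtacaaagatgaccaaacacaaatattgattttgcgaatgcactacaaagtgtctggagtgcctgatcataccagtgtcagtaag
Cyp2c65: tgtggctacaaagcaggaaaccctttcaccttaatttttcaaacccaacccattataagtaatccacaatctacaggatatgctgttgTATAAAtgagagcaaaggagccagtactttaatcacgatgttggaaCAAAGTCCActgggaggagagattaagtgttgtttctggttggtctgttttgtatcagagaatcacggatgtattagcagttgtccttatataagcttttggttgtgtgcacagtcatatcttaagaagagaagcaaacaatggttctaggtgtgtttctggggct
Both hold CAAAGTCCA, which begins 77 bases before the start in Cyp2c68 and 116 in Cyp2c65, and Cyp2c65 also holds TATAAA at 162. The regions were 46.8% identical, where regions from different subfamilies gave 46.2% and 45.4%. Of the 43 P450 genes with such a region in the table, 5 hold these letters (11.6%), namely Cyp2c65, Cyp2c68, Cyp2c70, Cyp3a11 and Cyp3a16, against 0.555% of 27025 genes. Of the 5, 1 was higher, 2 were lower and 2 did not pass. All 5 are Cyp2c or Cyp3a genes, so they are relatives rather than independent cases. A region was in the table for 5 of the 9 higher genes and for all 14 lower ones. Hnf4a, the receptor named for this site, differed by -0.015 between the pairs and did not pass (limma adjusted p = 0.940). TATAAA stood in 41.9% of the P450 regions and 15.7% of all genes, and AGGTCA in 27.9% and 18.1%. The core letters of the aryl hydrocarbon receptor site, GCGTG, stood in 25.6% of the P450 regions against 35.2% of all genes. For the GATA letters AGATAA these shares were 23.3% and 12.7%, and for the CDX letters TTTATG 14.0% and 13.6%. A match of letters is a description and shows no binding.

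Cyp2f2, which activates naphthalene in the club cells of mouse airways, had the most positive difference of the 56 genes in the 4-library test, where as labelled it came after Cyp2d13 and Cyp2d12. It measured 10.08, 9.27 and 4.61 in distal 1, 2 and 3, against 9.41, 4.55 and 4.65 in proximal 1, 2 and 3. Its difference between the pairs was 5.08 (SE 0.27, limma adjusted p = 0.000671), or 33.7-fold. The size is uncertain, since distal 3 and the proximal pair lay far below the lower quartile of all values. Cyp2a12, a steroid hydroxylase of mouse liver and its neighbour on chromosome 7, measured 5.57, 5.55 and 4.23 in distal 1, 2 and 3, against 4.65, 4.43 and 4.02 in proximal 1, 2 and 3. It was higher by 1.34 (SE 0.16, limma adjusted p = 0.00682), all at low signal, and lost its call without any 1 of the 4 libraries (adjusted p up to 0.105). Proximal 1 lay nearer the proximal pair in this gene. The 4 measured Cyp2b genes, known as targets of the constitutive androstane receptor in liver, were below the lower quartile in every library. Cyp2b10 measured between 5.42 and 5.69 and differed by 0.10 (95% interval -0.20 to 0.39). The start region of Cyp2f2, shown for its leading difference, lies at chr7:27119705-27120004 on the plus strand (RefSeq, GRCm38.p6).
Cyp2f2: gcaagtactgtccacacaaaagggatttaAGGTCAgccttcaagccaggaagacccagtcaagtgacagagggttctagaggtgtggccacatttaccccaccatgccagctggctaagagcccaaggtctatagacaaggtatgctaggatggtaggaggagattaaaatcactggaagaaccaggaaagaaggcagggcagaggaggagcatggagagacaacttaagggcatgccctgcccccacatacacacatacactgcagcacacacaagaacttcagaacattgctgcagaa
It holds AGGTCA once, 221 bases before the start, and neither of the other motifs.

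The remaining family 2 genes moved little or against the distal pair. Cyp2j6, one of the Cyp2j epoxygenases of arachidonic acid, measured 10.17, 10.11 and 11.68 in distal 1, 2 and 3, against 10.43, 11.62 and 11.82 in proximal 1, 2 and 3. It fell by 1.58 on the log2 scale (SE 0.12, limma adjusted p = 0.00202), and its second probe set differed by -2.04. The call was lost without distal 2, proximal 2 or proximal 3 (adjusted p up to 0.080). Cyp2j11 fell by 0.57 (limma adjusted p = 0.0446), a call that was lost without any 1 library (adjusted p up to 0.321), and the other 3 of 5 Cyp2j genes did not pass. Cyp2s1, an enzyme of epithelia outside the liver, lay between 11.84 and 12.30 in all 6 libraries and differed by 0.29 (95% interval -0.03 to 0.61). Cyp2r1, the vitamin D 25-hydroxylase, differed by 0.03 (95% interval -0.57 to 0.63) and Cyp2u1, a fatty acid hydroxylase, by 0.44 (limma adjusted p = 0.0798). The second, dimmer probe set of Cyp2u1 differed by -0.11. Cyp2e1, which oxidises ethanol and acetone, varied within both labels, with 9.81, 8.18 and 9.64 in distal 1, 2 and 3, against 10.02, 10.77 and 8.63 in proximal 1, 2 and 3. Its difference was -0.70 with a 95% interval of -2.80 to 1.39, and it changed sign with 1 library left out, from -1.78 to 0.36. The 4 measured adipocyte markers had log2 summed levels of 13.09, 12.42 and 13.47 in distal 1, 2 and 3, against 13.63, 13.95 and 12.98 in proximal 1, 2 and 3. Their mean was 9.75, 8.96 and 10.63 in distal 1, 2 and 3, against 10.26, 11.22 and 10.11 in proximal 1, 2 and 3. Distal 2 was lowest and proximal 2 highest for Cyp2e1 and by both measures of these markers, while the order of the other libraries depended on the measure. Of the 4, Cidec was lower in the distal pair (-2.67, limma adjusted p = 0.00803) and 3 did not pass. The part of these cells was not tested.

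The Cyp3a genes, relatives of human CYP3A4 that oxidise drugs, steroids and bile acids and respond to the pregnane X receptor, were lower in the distal pair. Of 5 measured genes on chromosome 5, 4 were lower, none was higher, and Cyp3a16, between 3.14 and 3.30 in all libraries, did not pass. Cyp3a25 measured 3.56, 3.89 and 8.30 in distal 1, 2 and 3, against 4.02, 8.96 and 9.78 in proximal 1, 2 and 3. Its difference of -5.65 (SE 0.29, limma adjusted p = 0.000608) was the most negative of the 56 genes, with the distal pair and proximal 1 near the bottom of the scale. Cyp3a44, a gene of female mouse liver, measured 3.81, 4.02 and 5.32 in distal 1, 2 and 3, against 3.96, 6.10 and 7.16 in proximal 1, 2 and 3, a difference of -2.72 (SE 0.35, limma adjusted p = 0.0079). Cyp3a11, the main inducible enzyme of the subfamily in mouse liver, measured 3.49, 3.51 and 3.97 in distal 1, 2 and 3, against 3.38, 5.42 and 6.20 in proximal 1, 2 and 3. It differed by -2.31 (SE 0.26, limma adjusted p = 0.00555), and here distal 3 lay nearer the distal pair. Cyp3a11 was below the lower quartile of all genes in every library. Cyp3a13, known as the member most used by the intestine, was bright throughout. It measured 11.74, 11.44 and 12.59 in distal 1, 2 and 3, against 11.18, 12.94 and 13.02 in proximal 1, 2 and 3, a difference of -1.39 (SE 0.14, limma adjusted p = 0.00407), or 2.62-fold lower. Cyp3a25 lost its call without distal 2 (adjusted p = 0.0585). The other 3 called genes passed with only 1 of the 4 libraries left out, which was distal 1 for Cyp3a13 and proximal 2 for Cyp3a11 and Cyp3a44 (adjusted p up to 0.115).

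The start regions of Cyp3a25 and Cyp3a11 are shown because these neighbours were lower together. They are 300 bases each from RefSeq (GRCm38.p6), both on the minus strand, at chr5:146009569-146009868 and chr5:145879805-145880104.
Cyp3a25: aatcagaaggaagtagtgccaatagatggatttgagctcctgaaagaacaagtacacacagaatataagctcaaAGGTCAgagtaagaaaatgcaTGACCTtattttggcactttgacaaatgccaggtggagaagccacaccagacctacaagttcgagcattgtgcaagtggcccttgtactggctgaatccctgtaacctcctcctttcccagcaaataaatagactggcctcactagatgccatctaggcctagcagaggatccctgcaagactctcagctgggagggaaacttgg
Cyp3a11: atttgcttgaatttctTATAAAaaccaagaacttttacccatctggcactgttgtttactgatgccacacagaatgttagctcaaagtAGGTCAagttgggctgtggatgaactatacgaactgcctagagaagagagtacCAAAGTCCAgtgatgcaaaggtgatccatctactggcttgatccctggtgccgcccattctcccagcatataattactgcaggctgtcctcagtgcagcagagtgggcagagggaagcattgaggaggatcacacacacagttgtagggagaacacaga
Cyp3a25 holds AGGTCA 176 bases before the start and its reverse complement 155 before it. Cyp3a11 holds AGGTCA beginning 162 bases before the start, the HNF4 letters beginning 109 before it and the TATA letters beginning 234 before it. The regions were 52.4% identical, and those of Cyp3a44 and Cyp3a11 71.2%, where regions from different subfamilies gave 46.2% and 45.4%.

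Of the 13 family 4 genes 1 was higher and 3 were lower in the distal pair, while 9 did not pass. Cyp4b1, a fatty acid hydroxylase that also activates plant toxins, measured 8.32, 8.03 and 10.88 in distal 1, 2 and 3, against 8.27, 11.83 and 12 in proximal 1, 2 and 3. It differed by -3.74 (SE 0.14, limma adjusted p = 0.000317), a 13.4-fold lower level, with distal 3 near the proximal pair and proximal 1 among the distal pair. Cyp4f14 and Cyp4f15 belong to a subfamily that inactivates leukotrienes by hydroxylation. Cyp4f15 measured 5.25, 5.30 and 6.28 in distal 1, 2 and 3, against 5.27, 7.65 and 8.04 in proximal 1, 2 and 3, a difference of -2.57 (SE 0.16, limma adjusted p = 0.00107). Its distal 3 value lay nearer the distal pair than the proximal pair. Cyp4f14 measured 10.54, 10.92 and 11.85 in distal 1, 2 and 3, against 10.33, 12.29 and 12.39 in proximal 1, 2 and 3, a difference of -1.61 (SE 0.16, limma adjusted p = 0.00382). Cyp4f15 lost its call without distal 2 (adjusted p = 0.0606), and Cyp4f14 without proximal 2 or proximal 3 (adjusted p up to 0.108). The other 5 Cyp4f genes did not pass. Among them Cyp4f16, between 11.24 and 11.74, differed by -0.02 (95% interval -0.30 to 0.26). Its second probe set passed with -0.47 (limma adjusted p = 0.0352) in a separate fit of all 34945 single-gene probe sets. The 3 Cyp4a genes, targets of the receptor PPAR-alpha in liver, lay below 4 in every library, and Cyp4a14 differed by -0.04 (95% interval -0.32 to 0.24). Cyp4x1, a gene known from brain, measured 6.08, 6.02 and 4.72 in distal 1, 2 and 3, against 5.41, 5.41 and 5.32 in proximal 1, 2 and 3. It was higher by 0.69 (SE 0.11, limma adjusted p = 0.0142) and lost its call without any 1 library (adjusted p up to 0.224). Cyp4v3, related to the human retinal enzyme CYP4V2, differed by 0.03 (95% interval -0.51 to 0.57), and its second probe set by -0.105.

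In family 1, whose members oxidise aromatic hydrocarbons and are induced through the aryl hydrocarbon receptor, signals were low and 2 of 3 genes were lower in the distal pair. Cyp1b1 measured 4.92, 5.28 and 6.42 in distal 1, 2 and 3, against 5.80, 6.78 and 6.67 in proximal 1, 2 and 3. It differed by -1.63 (SE 0.15, limma adjusted p = 0.00345), but its other 2 probe sets, which were dimmer, differed by 0.10 and -0.20 and did not pass. Without proximal 2 or proximal 3 the call was lost (adjusted p up to 0.098). Cyp1a1, the classic target of the receptor, measured 5.38, 5.01 and 5.64 in distal 1, 2 and 3, against 5.60, 5.83 and 5.94 in proximal 1, 2 and 3, a difference of -0.69 (SE 0.16, limma adjusted p = 0.0372). It lay below the lower quartile of all genes in every library, and its call was lost when the arrays were centred on their medians (adjusted p = 0.0593) or without any 1 library (adjusted p up to 0.319). Cyp1a2, a liver enzyme, did not pass.

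The libraries left out of the 4-library test were set beside its calls as a description. They were left out because their expression lay with the other label, so their general place is set by that choice and supports nothing. For each gene the level of proximal 1 and of distal 3 was placed on a scale on which the mean of the proximal pair is 0% and that of the distal pair 100%. Over the 23 genes the median place was 18.8% for distal 3 and 84.8% for proximal 1, against 12.8% and 75.7% over all 3494 genes that passed. Distal 3 lay nearer the proximal pair in 21 of the 23 genes (91.3%), a share close to the 90.1% of all genes that passed. The exceptions were Cyp3a11 at 79.7% and Cyp4f15 at 60.9%. Proximal 1 lay nearer the distal pair in 19 of the 23 (82.6%, against 75.6% of all genes that passed). Its exceptions were all genes of low signal, Cyp4x1 at 6.57%, Cyp2a12 at 31.8%, Cyp1a1 at 41.3% and Cyp2j11 at 43.9%. Proximal 1 stood beyond the mean of the distal pair in Cyp2c55 (131%), Cyp3a13 (129%), Cyp4f14 (125%), Cyp2d26 (117%), Cyp3a11 (105%) and Cyp4f15 (100.2%). Distal 3 took intermediate places in Cyp3a44 (48.3%), Cyp2d34 (47.3%), Cyp1a1 (35.5%), Cyp2d9 (34.5%), Cyp2d13 (31.7%), Cyp4f14 (30.4%), Cyp3a13 (28.1%) and Cyp4b1 (27.7%). In Cyp2f2 (0.197%) and Cyp2a12 (0.375%) it stood at the mean of the proximal pair. It stood beyond that mean in Cyp2c65 (-2.60%), Cyp2d10 (-4.41%), Cyp2c68 (-11.0%) and Cyp4x1 (-94.2%). Genes of one subfamily were thus placed differently in this library. These places have no replicate and were not tested.

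**Figure D4:**
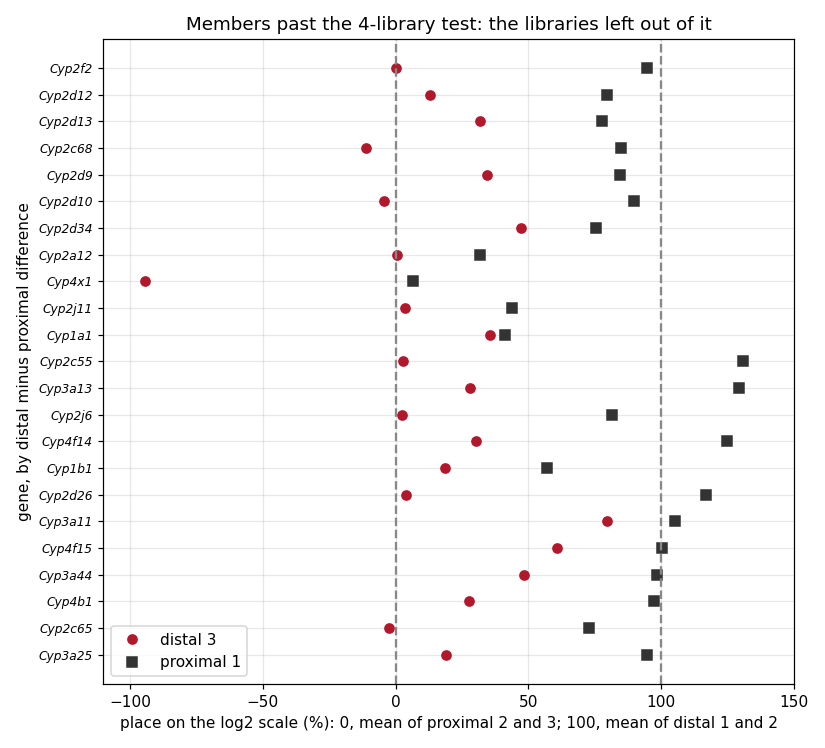
Place of the libraries labelled distal 3 (red circles) and proximal 1 (black squares) between the proximal pair (0%) and the distal pair (100%) on the log2 scale, for the 23 genes past the 4-library test, ordered by difference. Most circles lie nearer 0% than 100% and most squares nearer 100% than 0%, with a wide spread and some beyond these marks. Distal 3 is midway in Cyp2d34 and Cyp3a44.

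Genes that serve the P450 enzymes were also examined. Por, the cytochrome P450 reductase, and Fdxr were listed among the electron donors but not measured here. Of 6 measured electron donors and membrane partners 3 were lower in the distal pair and none was higher. Of all genes, 11.5% passed as lower and 7.71% as higher. The list median was -0.42 beside -0.045 for all genes. Cyb5a, cytochrome b5 of the endoplasmic reticulum, measured 11.84, 11.85 and 12.33 in distal 1, 2 and 3, against 12.12, 12.35 and 12.42 in proximal 1, 2 and 3, a difference of -0.54 (SE 0.10, limma adjusted p = 0.0250). Pgrmc1, a haem-binding membrane protein that interacts with P450 enzymes, differed by -1.0 (limma adjusted p = 0.00435), and Fdx1, the ferredoxin of mitochondrial P450 enzymes, by -0.91 (limma adjusted p = 0.0116). Of 11 genes of haem synthesis and breakdown 5 were lower and none was higher, beside 11.5% and 7.71% of all genes, with a median of -0.24. Alas1, the rate-limiting enzyme of haem synthesis, measured 11.08, 11.37 and 12.23 in distal 1, 2 and 3, against 10.96, 12.67 and 12.73 in proximal 1, 2 and 3. It fell by 1.48 on the log2 scale (SE 0.14, limma adjusted p = 0.00329), with the distal pair and proximal 1 low. Alad, the next enzyme of the pathway, differed by -0.72 (limma adjusted p = 0.0123), and the haem oxygenase Hmox1 by -1.48 (limma adjusted p = 0.00501).

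Of 18 receptors and factors that control P450 genes 1 was higher, 2 were lower and 15 did not pass, beside the 19.2% of all genes that passed. Ppara, the fatty acid receptor, measured 8.56, 9.03 and 10.18 in distal 1, 2 and 3, against 8.49, 10.16 and 10.37 in proximal 1, 2 and 3, a difference of -1.47 (SE 0.19, limma adjusted p = 0.00795). Rxra, the partner of these receptors, differed by -0.72 (limma adjusted p = 0.0108) and Foxa2, a forkhead factor of endoderm, by 0.82 (limma adjusted p = 0.0199). The pregnane X receptor Nr1i2 measured 9.31, 9.37 and 9.33 in distal 1, 2 and 3, against 9.14, 9.48 and 9.70 in proximal 1, 2 and 3, and its difference of -0.25 did not pass (limma adjusted p = 0.221). The constitutive androstane receptor Nr1i3 (0.18, limma adjusted p = 0.311) and the aryl hydrocarbon receptor Ahr (0.32, limma adjusted p = 0.115) did not pass either. Of 4 other aryl hydrocarbon receptor targets 2 were lower, beside 11.5% of all genes. These were Nqo1 (-1.30, limma adjusted p = 0.0053) and Tiparp (-0.56, limma adjusted p = 0.0248), while Ahrr and Aldh3a1 did not pass. Of 13 epoxide hydrolases and eicosanoid enzymes 2 were higher and 4 lower, beside 7.71% and 11.5% of all genes. The lipoxygenase Alox15 (1.25, limma adjusted p = 0.0104) and Ephx4 (0.95, limma adjusted p = 0.0161) were higher. The prostaglandin synthase Ptgs2 (-1.20, limma adjusted p = 0.0107) and Ltc4s, which makes leukotriene C4 (-0.67, limma adjusted p = 0.0332), were lower, as were Alox12 and the soluble epoxide hydrolase Ephx2.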

How the data were processed

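Gene expression was measured on 1 array per library. The deposited log2 expression values per probe set came from RMA as run in Partek 6.5 by the authors, per the submitters' processing notes, and per the labels' protocols RNA was amplified with NuGEN kits. RMA equalises the arrays, which hides any change common to most genes. Array medians ran from 7.90 to 8.02, and precision is limited by there being 6 arrays.

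Of 45101 probe sets, 34945 name 1 gene. Symbols were matched through gene identifiers to RefSeq (GRCm38.p6, for names, gene order and promoter sequences), and all 56 P450 genes matched. Another 4 probe sets that name several P450 genes were kept out. All 18193 genes were fitted with limma 3.58.1 in R 4.3.3 (lmFit, eBayes, two-sided, Benjamini-Hochberg over all genes, adjusted p threshold 0.05), with no block for the replicate number. Further probe sets of a gene were read from a separate fit of all 34945 single-gene probe sets, adjusted over those. The calculation was tested on simulated data. The titles call the replicates biological and the design text gives 3 animals, but not which libraries share one, so shared animals are not modelled. Genes described in full were the 4 markers Cyp2f2, Cyp2d12, Cyp3a25 and Cyp2c68, up to 12 genes a direction past the 4-library test, the member with the highest mean of each subfamily of at least 2 genes, and the 4 with the largest differences as labelled. Genes of other lists were named by smallest adjusted p, up to 4 a list, and receptors that did not pass, Cyp2c23, Cyp2e1, Cyp2s1, Cyp2u1, Cyp2r1, Cyp2j5, Cyp4v3, Cyp27a1 and Cyp51 were picked with their values known. The members, lists, motifs and tests were chosen with earlier results of these data known. The alternatives were the replicate number as a block, each library left out, dim genes left out, quantile normalization, the mean of probe sets, centring on array medians, a robust prior with a trend and a threshold of 0.01. Dim genes in that alternative were those with a mean under 9.31, the median of all gene means.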

Additional observations from a re-analysis of the deposited data

How the results depend on the processing

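As labelled, 0 P450 genes and 0 of all genes passed under each alternative run, the replicate block among them (0 and 0, with Cyp2d13 at 2.42 and an adjusted p of 0.721). Same-numbered libraries deviated together from their labelled group means for numbers 1 and 3 (r = 0.677 and 0.678 across genes) and not for number 2 (r = -0.448). Distal 2 and 3 did not correlate best with their own number. Distal 3 went with proximal 2 (r = 0.728) and against proximal 1 (r = -0.767). The group means include distal 3 and proximal 1, which went against their labels. These correlations therefore cannot tell a shared mouse from that split, and the samples were not treated as pairs. The 4-library comparison shares only number 2, so the block was fitted on the 6 libraries alone. In the 4-library test, 23 P450 genes became 12 of 17 with dim genes left out, and 9 to 17 with 1 library left out. All genes called were 3494, 1112 at a threshold of 0.01, and 146 to 1633 with 1 library left out. The share of all calls higher in the distal pair was 40.1%, against 54.7% with median centring and 50.2% with quantile normalization, and for P450 genes 39.1%, 47.8% and 39.1%. With dim genes left out, 3242 of the 9099 remaining genes passed the 4-library test, beside 12 of the 17 P450 genes. Dim here means a mean under the median of all gene means, 9.31, which is well above the lower quartile used elsewhere. Under some alternatives the differences near 0 changed sign. As labelled, Cyp2b10 (-0.03) was 0.0444 with the mean of probe sets, 0.0367 with median centring and -0.10 to 0.0383 with 1 library left out. Cyp4f16 (0.02) was -0.0633 with the mean of probe sets and -0.13 to 0.13 with 1 left out, Cyp4a14 (0.01) -0.02 to 0.055, and Cyp4x1 (0.23) -0.01 to 0.67. In the 4-library test Cyp4a14 (-0.04) was 0.0442 after quantile normalization, 0.05 after median centring and -0.115 to 0.035 with 1 library left out, and Cyp4f16 (-0.02) was 0.0221, 0.07 and -0.085 to 0.045. Cyp1a1 lost its call with median centring (-0.60). The cause of these changes was not tested, except that dropping dim genes removes genes and dropping a library removes samples. For 12 of the 23 called differences the pair with less signal was below the lower quartile of all genes, so their sizes are uncertain.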

Other observations

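Of 19 measured P450 genes outside families 1 to 4, 1 was higher in the distal pair, none was lower and 18 did not pass. The share of all genes that passed was 19.2%. Cyp11a1, which starts steroid synthesis from cholesterol, measured 8.82, 8.25 and 7.42 in distal 1, 2 and 3, against 8.46, 7.14 and 7.15 in proximal 1, 2 and 3, a difference of 1.39 (SE 0.20, limma adjusted p = 0.0114). The sterol 27-hydroxylase Cyp27a1 (0.48, limma adjusted p = 0.0689) and the cholesterol synthesis enzyme Cyp51 (-0.21, limma adjusted p = 0.216) did not pass.

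The 4 probe sets that name several P450 genes were set apart from the 56 genes and not tested. The probe set of Cyp3a41a and Cyp3a41b lay between 3.40 and 3.63 and that of Cyp4a10 and Cyp4a31 between 4.26 and 4.52 in all libraries. That of Cyp2a4 and Cyp2a5 measured 4.85, 4.11 and 5.10 in distal 1, 2 and 3, against 4.72, 4.62 and 5.0 in proximal 1, 2 and 3. That of Cyp4f16 and Cyp4f37 lay between 10.20 and 10.28 in the distal libraries and between 9.85 and 10.51 in the proximal ones.

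Outside the P450 genes, the profiles most like that of Cyp2f2 over the 6 libraries were those of Unc119, P2ry6 and Pdzk1ip1, each with Pearson's r at or above 0.9988. For Cyp3a25 they were Amacr, Nln and Dab1 (r at or above 0.9993). The libraries share mice and the region of origin, so these values only describe profiles. Dab1 measured 5.71, 5.95 and 7.77 in distal 1, 2 and 3, against 6.04, 8.02 and 8.38 in proximal 1, 2 and 3.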
